A study of Mus musculus with 13 samples.

Results

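A set of 10 CC chemokines that recruit leukocytes was followed in the mouse endometrium: Ccl2, Ccl3, Ccl4, Ccl5, Ccl7, Ccl8, Ccl11, Ccl12, Ccl20 and Ccl24. They were chosen by name, each through the array feature whose only gene symbol was that chemokine, and each had 1 such feature, so 10 of 65929 features and 10 of 30142 genes are described. The series compared estrogen, a high-fat diet and their combination in the endometrium of C57BL/6 mice without ovaries. All 13 females lost both ovaries at 6 to 8 weeks of age, and the groups were then treated for 12 weeks (3 months in the sample protocols). CON mice (n = 3) ate normal chow, E2 mice (n = 4) had chow and a subcutaneous pellet that released estradiol (E2), HD mice (n = 3) ate a high-fat diet, and MIX mice (n = 3) had both the pellet and the high-fat diet. No group kept its ovaries, no source used here gives the pellet's dose, and the tissue was scraped from the opened uterus, so a sample mixes epithelium, stroma and resident or recruited leukocytes. Each mouse gave 1 sample and 1 Affymetrix array.

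CC chemokines are small secreted proteins that bind G protein-coupled receptors on leukocytes and draw the cells along a gradient. Ccl3, Ccl4 and Ccl5 attract monocytes, macrophages, natural killer (NK) cells and T cells; the monocyte chemoattractant proteins Ccl2, Ccl7 and Ccl12 act mainly through Ccr2; the eotaxins Ccl11 and Ccl24 attract eosinophils through Ccr3; and Ccl20 attracts Ccr6-bearing lymphocytes and dendritic cells. In the rodent uterus, estrogen is known to bring in macrophages and eosinophils, and uterine stromal and epithelial cells as well as leukocytes can make CC chemokines.

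In these mice Ccl3 had the largest difference between mice with and without the pellet. Its mean log2 expression was 5.35 ± 0.17 (SD, n = 3) in CON, 5.97 ± 0.61 (n = 3) in HD, 7.90 ± 1.53 (n = 4) in E2 and 7.78 ± 1.61 (n = 3) in MIX. Ccl5 and Ccl8 had their highest group mean in MIX, as did Ccl2, Ccl4 and Ccl7, each above E2 by less than the larger SD. The pellet differences of Ccl5 and Ccl8 were 0.78 and 0.89. The eotaxins Ccl11 (-0.35) and Ccl24 (-0.01) had none above 0, and the remaining 5 members had differences of 0.20 to 0.53. None of the 10 passed the test across all features in any comparison, so the differences below are given as values with their errors.

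A value here is the log2 expression of a feature after RMA, so a difference of 1 is a doubling. A feature's level depends on its probes, and levels are therefore compared between mice and not between genes. Ccl12 (mean over all mice 3.71) and Ccl20 (4.28) lay under 4.51, the 95th percentile of the means of 1721 olfactory and vomeronasal receptor features, and are near background. Array medians lay between 4.48 and 4.71, and correlations between arrays between 0.960 and 0.995. On the first principal component of all features (33.4% of the variance) the highest scores were those of MIX replicate 3 (102.5) and E2 replicate 1 (46.99). Values without them are given beside the results that they moved most. The mean of 9 epithelial markers, among them Epcam and Krt8, lay between 10.4 and 10.8 in every mouse, and their presence was checked against the labelled tissue. The labels do not say that mice are paired. A limma p-value sets a difference against the spread between mice that remains after group and the numbered or lettered code of the sample title. That spread is moderated with the spreads of all features.

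Most of the 10 genes are on chromosome 11. In RefSeq's order of genes on mouse chromosome 11 (assembly GRCm38.p6), Ccl2, Ccl7, Ccl11, Ccl12 and Ccl8 are neighbours with 0 other protein-coding genes between them. Ccl1 is next, and Ccl5 comes after 25 more protein-coding genes. Ccl9, Ccl6, Ccl3 and Ccl4 follow, with 0 other protein-coding genes between them. The genes between Ccl5 and Ccl9 were not counted. Ccl20 is on chromosome 1 and Ccl24 on chromosome 5. The RefSeq spans of Ccl3 and Ccl4 overlap, and the probe sequences of the features were not used here, so a contribution of one gene to the other's signal was not tested.

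RefSeq's promoter table (GRCm38.p6) matched 4 of the 10 members by symbol. The 250 bases before the start are shown for Ccl3, which has the largest pellet difference, and for the neighbours Ccl8 and Ccl12. All are 5′ to 3′ on the gene's own strand, with capitals marking a TATA box (TATAAA) or an estrogen response element half-site (AGGTCA). The stretches are chr11:83649379-83649628 (minus strand) for Ccl3, chr11:82114935-82115184 (plus strand) for Ccl8 and chr11:82101595-82101844 (plus strand) for Ccl12.
Ccl3: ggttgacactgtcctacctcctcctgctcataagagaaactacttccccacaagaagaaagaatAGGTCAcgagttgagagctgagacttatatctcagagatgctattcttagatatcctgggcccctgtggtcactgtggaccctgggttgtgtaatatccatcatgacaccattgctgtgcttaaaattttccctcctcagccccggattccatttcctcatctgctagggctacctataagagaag
Ccl8: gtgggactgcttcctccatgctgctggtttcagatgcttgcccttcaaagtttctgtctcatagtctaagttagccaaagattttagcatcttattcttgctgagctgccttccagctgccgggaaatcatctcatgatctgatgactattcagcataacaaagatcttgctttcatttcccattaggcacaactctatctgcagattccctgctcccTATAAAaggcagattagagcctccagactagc
Ccl12: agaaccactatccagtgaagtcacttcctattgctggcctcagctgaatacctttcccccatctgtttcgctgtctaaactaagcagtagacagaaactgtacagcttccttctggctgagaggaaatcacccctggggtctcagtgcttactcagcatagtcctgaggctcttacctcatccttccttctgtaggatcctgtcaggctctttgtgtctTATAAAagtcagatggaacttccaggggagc
The search covered both strands of the 300 bases that each table entry holds, which add 50 bases after the start. TATAAA began at position -32 from the start of Ccl8 and at -31 from that of Ccl12, and was in 13.6% of all 32851 promoters of that length. AGGTCA was found in Ccl3, at -186, and, on the opposite strand, in Ccl20, against 16.3% of all promoters. The NF-κB consensus was matched in Ccl20 alone of the 4, at -80 (8.46% of all promoters). The AP-1 site TGANTCA (7.81%) and the full estrogen response element, searched as its palindrome with a gap of any bases (0.07%) were in none of the 4. No searched motif overlapped another in the stretches shown. A match describes letters only. Ccl8 and Ccl12 were 54.9% identical over a global alignment of the 300 bases, and the other pairs 46.6% to 50.6%.

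The macrophage inflammatory proteins and Ccl5 come first. Ccl3, macrophage inflammatory protein 1-alpha, is made by activated macrophages and other leukocytes. Its log2 values were 5.42, 5.15 and 5.48 in CON, 10.06, 6.46, 7.66 and 7.40 in E2, 5.68, 5.56 and 6.67 in HD, and 7.17, 6.55 and 9.60 in MIX. All 4 E2 mice were above all CON mice, while HD replicate 3 overlapped the lower pellet mice, and E2 replicate 1 and MIX replicate 3 stood above all others. In the order of the group means, CON and HD differed by more than the larger of their SDs, as did HD and MIX, but MIX and E2 did not.

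Averaged over both diets, the fitted pellet difference of Ccl3 was 2.13 (SE 0.67, a 4.38-fold difference, 95% confidence interval 0.64 to 3.62). Its unadjusted p was 0.00959 and its adjusted p in limma 0.367. With the pellet alone (E2 minus CON) Ccl3 differed by 2.56 (SE 0.86, adjusted p in limma 1.00), and on the high-fat diet (MIX minus HD) by 1.70 (SE 1.06, adjusted p 0.742). Without E2 replicate 1, Ccl3 in E2 minus CON was 1.83. In MIX minus CON it was 2.32 with all mice and 1.16 without E2 replicate 1 and MIX replicate 3. Ccl3 in MIX minus HD was 0.79 without MIX replicate 3, 0.54 without E2 replicate 1 as well, and 2.41 without HD replicate 3. The 7 pellet mice ran from 6.46 through a median of 7.40 to 10.06, and the 6 mice without a pellet from 5.15 through 5.52 to 6.67. Of the 7 pellet mice, 5 were above all 6 without a pellet, and 2.58% of all features had 5 or more above all 6.

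An exact two-sided permutation test, which relabels pellet and no pellet within each diet, used the plain difference of group means. For Ccl3 that difference was 2.18 with an exact p of 0.00571 over 700 relabelings, whose smallest possible p is 0.00143. Adjusted over all features the exact p was 0.314. By this test 10.9% of all features had an unadjusted p under 0.05, 3.82% of all features with a higher value under the pellet, and 0% passed after adjustment. No exact p can be under 0.00143, so features could pass only if very many shared it, and the adjusted exact p decides little. Without E2 replicate 1 and MIX replicate 3 together, the plain difference of Ccl3 was 1.36 (exact permutation p = 0.015). Each exact test without both mice had only 200 relabelings.

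Ccl4, macrophage inflammatory protein 1-beta and the neighbour of Ccl3, had lower contrast between the groups. Its values were 4.48, 4.65 and 4.47 in CON, 5.58, 4.52, 4.89 and 4.90 in E2, 4.53, 4.63 and 4.76 in HD, and 4.77, 4.69 and 5.53 in MIX. The same 2 mice as for Ccl3, E2 replicate 1 and MIX replicate 3, were highest, and the other pellet mice lay between 4.52 and 4.90, partly among the mice without a pellet. Its fitted pellet difference was 0.40 (SE 0.19, adjusted p in limma 0.529). Its plain difference of 0.40 (exact permutation p = 0.0314, 0.405 adjusted) came to 0.16 (exact p = 0.09) without those 2 mice.

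Ccl5, also called RANTES, is made largely by T and NK cells. Its values were 6.96, 6.87 and 6.65 in CON, 7.74, 6.96, 6.94 and 7.89 in E2, 6.45, 6.67 and 6.91 in HD, and 6.77, 8.14 and 8.64 in MIX. E2 replicates 1 and 4 and MIX replicates 2 and 3 stood above every mouse without a pellet, and the other 3 pellet mice lay among them. The groups therefore overlapped, and the means of 6.83 ± 0.16 (n = 3) in CON and 7.38 ± 0.50 (n = 4) in E2 differed by just over the larger SD. MIX, at 7.85 ± 0.97 (n = 3), did not differ from E2 beyond its spread.

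The fitted pellet difference of Ccl5 was 0.78 (SE 0.30, a 1.72-fold difference, unadjusted p = 0.0267, adjusted p in limma 0.452). On the high-fat diet alone it was 0.99 (SE 0.48, adjusted p 0.711), and 0.60 without MIX replicate 3. Array weights, which give less weight to more variable arrays, gave 0.48 for both the pellet average and MIX minus HD. The plain difference was 0.86 (exact permutation p = 0.0314, 0.405 adjusted) and 0.61 (exact p = 0.045) without E2 replicate 1 and MIX replicate 3. Leaving out MIX replicate 1 gave a fitted pellet difference of 1.05, and 1.53 for MIX minus HD. The former had an adjusted p of 0.0698, the lowest for any member under any alternative.

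**Figure D1:**
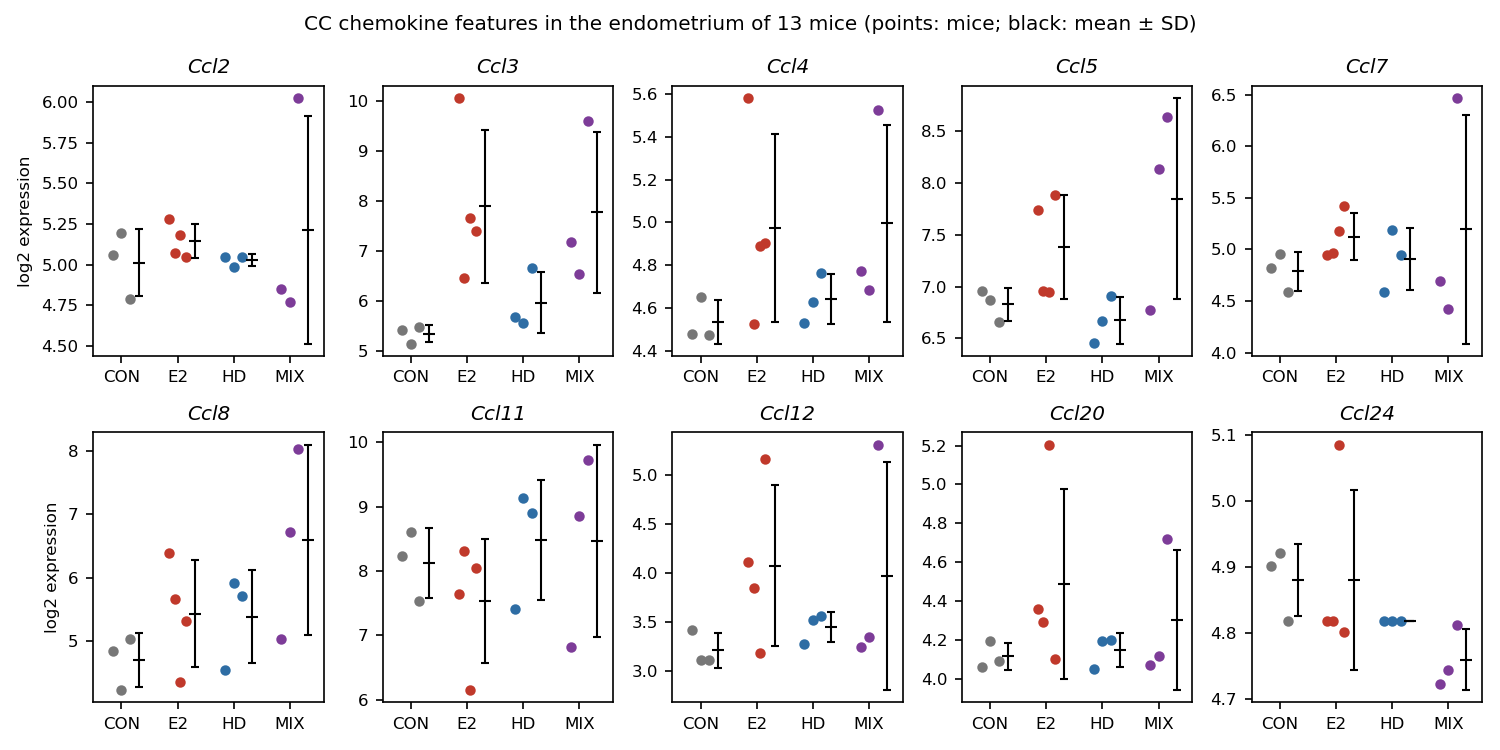
Log2 expression (vertical axis, a separate scale in each panel) of the 10 chemokines in CON, E2, HD and MIX, with 1 point per mouse and the group mean ± SD in black. Ccl3 ran from 5.15 to 5.48 in CON and from 6.46 to 10.06 in E2, and the highest MIX point is MIX replicate 3 in every panel.

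Among the monocyte chemoattractant proteins, Ccl8 varied most. In the mouse Ccl8 acts mainly through Ccr8. Its values were 4.85, 4.23 and 5.04 in CON, 6.39, 5.67, 4.36 and 5.32 in E2, 4.55, 5.91 and 5.71 in HD, and 5.04, 6.72 and 8.03 in MIX. Every group overlapped its neighbour in the order CON, HD, E2, MIX, and no neighbouring means differed by more than the larger SD. MIX (6.60 ± 1.50, n = 3) and CON (4.71 ± 0.42, n = 3) did not overlap, although MIX replicate 1 and CON replicate 3 were less than 0.01 apart.

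The fitted difference of Ccl8 between MIX and CON was 1.72 (SE 0.83, a 3.29-fold difference, adjusted p in limma 0.632). The pellet difference averaged over diets was 0.89 (SE 0.52, adjusted p 0.587), and the diet difference averaged over pellet states 0.83 (SE 0.54, adjusted p 1.00). Ccl8 had the largest diet difference of the members. Without MIX replicate 3, MIX minus CON was 1.00 and the diet difference 0.47. Without E2 replicate 1 and MIX replicate 3, MIX minus CON was 0.89 and the pellet difference 0.31.

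Ccl2, the founding monocyte chemoattractant protein, was nearly level. It lay between 4.79 and 5.19 in CON, 5.05 and 5.28 in E2, and 4.98 and 5.05 in HD, and was 4.85, 4.77 and 6.02 in MIX. A single mouse, MIX replicate 3, stood apart, while the other MIX mice were, with CON replicate 3, the lowest of the series. The fitted pellet difference was 0.20 (SE 0.19, adjusted p in limma 0.746), and it was -0.02 without E2 replicate 1 and MIX replicate 3. The plain difference was -0.04 without MIX replicate 3 alone.

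Ccl7, which follows Ccl2 on the chromosome, had the same shape. It ran from 4.59 to 4.95 in CON, 4.94 to 5.42 in E2 and 4.59 to 5.19 in HD, and was 4.69, 4.43 and 6.47 in MIX. MIX thus held both the highest and the lowest mouse of the series. For Ccl7 the fitted pellet difference was 0.29 (SE 0.32, adjusted p in limma 0.777) and -0.02 without MIX replicate 3.

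Ccl12, a mouse chemokine that acts through Ccr2, was near background. Its values were 3.42, 3.11 and 3.11 in CON, 4.11, 3.85, 3.18 and 5.16 in E2, 3.28, 3.52 and 3.56 in HD, and 3.24, 3.35 and 5.30 in MIX. Only E2 replicates 1, 2 and 4 and MIX replicate 3 exceeded every mouse without a pellet. Ccl12 had a fitted pellet difference of 0.53 (SE 0.39, adjusted p in limma 0.658), and 0.16 without E2 replicate 1 and MIX replicate 3.

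The eotaxins followed neither pattern. Ccl11, eotaxin 1, is made by stromal cells and fibroblasts. Its values were 8.23, 8.60 and 7.54 in CON, 7.64, 8.31, 6.15 and 8.05 in E2, 7.41, 9.13 and 8.90 in HD, and 6.81, 8.85 and 9.73 in MIX. All groups overlapped, with E2 replicate 3 lowest and MIX replicate 3 highest. The means were 8.12 ± 0.54 (n = 3) in CON, 7.54 ± 0.96 (n = 4) in E2, 8.48 ± 0.93 (n = 3) in HD and 8.46 ± 1.49 (n = 3) in MIX, and no neighbours in that order of levels differed by more than the larger SD.

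The fitted pellet difference of Ccl11 was -0.35 (SE 0.57, 95% confidence interval -1.63 to 0.93, adjusted p in limma 0.868). It became 0.06 without MIX replicate 1. The interval includes both a pellet difference like that of Ccl5 and its opposite, so these mice do not show that Ccl11 stayed level. The diet difference was 0.58 (SE 0.60, adjusted p 1.00), with 0.26 without MIX replicate 3 and 0.14 without CON replicate 3.

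Ccl24, eotaxin 2, hardly varied. It lay between 4.82 and 4.92 in CON, was 5.08 in E2 replicate 3 and 4.80 to 4.82 in the other E2 mice, 4.82 in all HD mice, and 4.72 to 4.81 in MIX. The same value was shared by 6 of the 13 mice (6 or more share one in 2.88% of features), so the small gaps between groups carry little information. Ccl24 had a fitted pellet difference of -0.01 (SE 0.06, adjusted p in limma 0.973).

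Ccl20, the ligand of Ccr6, was near background in every group. It lay between 4.06 and 4.19 in CON, 4.10 and 5.20 in E2, 4.05 and 4.20 in HD, and 4.07 and 4.72 in MIX. E2 replicate 3 and MIX replicate 3 were the high mice, and the others lay within the range of the mice without a pellet or just above it. For Ccl20 the fitted pellet difference was 0.31 (SE 0.18, adjusted p in limma 0.585), and 0.16 without E2 replicate 3.

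Counted over the members, the pellet averaged over diets gave 0 of 10 calls in limma, with 2 (Ccl3 and Ccl5) at an unadjusted p under 0.05. Over all features 0.0167% were called and 9.99% had an unadjusted p under 0.05. Of the members, 8 of 10 were higher with the pellet, with a median difference of 0.36, where 38.9% of all features (45.1% of genes with 1 symbol) were higher and the median over all features was -0.03. Between E2 and CON, 0 of 10 were called (0% of all features) and 1 was under 0.05 unadjusted (4.02%). There 8 of 10 were higher (46.5% of all features, 49.1% of genes with 1 symbol), with a median of 0.40 against -0.01 over all features. Ccl3 was the 1 member whose E2 mice all lay above the CON mice, against 3.01% of all features.

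On the high-fat diet, MIX minus HD gave 0 of 10 calls (0.00455% of all features) and 0 under 0.05 unadjusted (7.05%). Again 8 of 10 were higher (37.5% of all features, 44.5% of genes), with a median of 0.28 against -0.04 over all features, but no member had all MIX mice above the HD mice (3.47% of all features did). Ccl24 had them all below, as did 12.4% of all features. MIX minus CON gave 0 of 10 calls (0.00303% of all features) and 0 under 0.05 unadjusted (8.34%), with 9 higher (42.5% of all features, 46.3% of genes) and a median of 0.38 against -0.03. Ccl3, Ccl4 and Ccl8 had all MIX mice above all CON mice, against 5.52% of all features. Ccl24 had all MIX mice below all CON mice, as did 12.4% of all features. MIX minus CON and E2 minus CON share the CON mice.

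**Figure D2:**
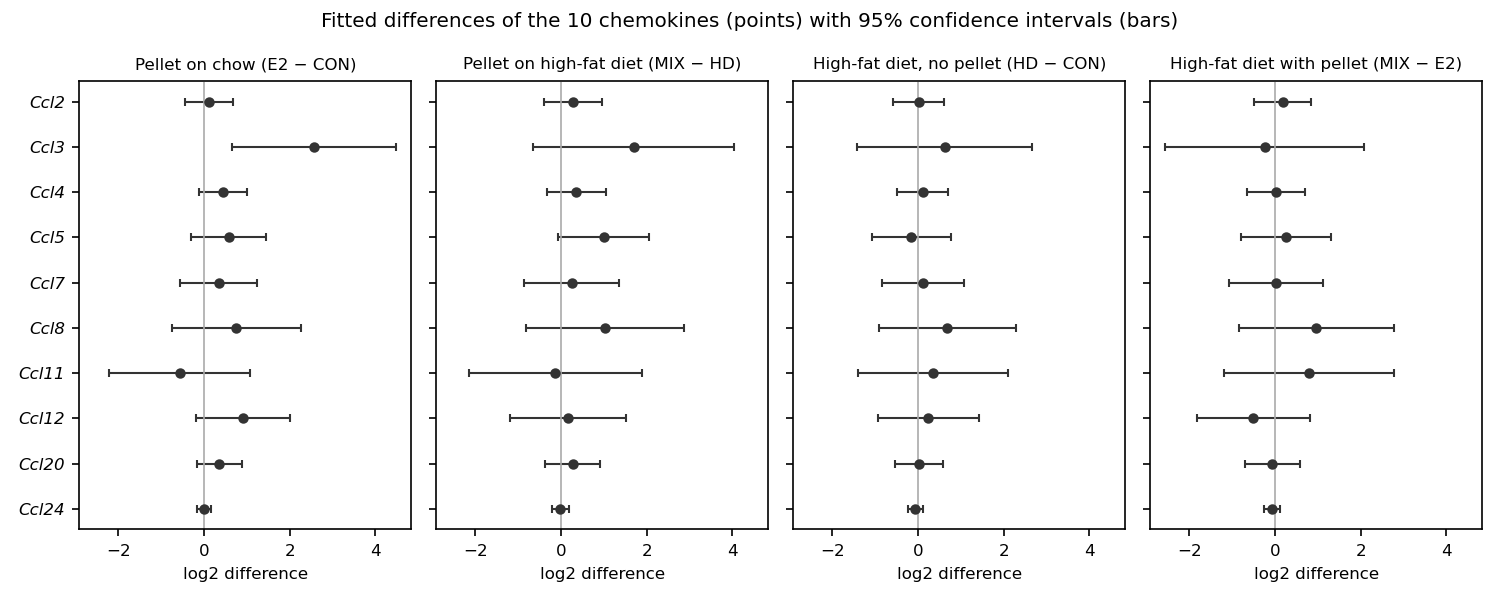
Fitted log2 difference (horizontal axis) of each chemokine in 4 comparisons, as points with 95% confidence intervals from limma. Ccl3 in E2 minus CON, from 0.64 to 4.48, is the only interval among these that excludes 0. That difference was 2.56 with all mice and 1.83 without E2 replicate 1.

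The diet was compared without and with the pellet. HD minus CON gave 0 of 10 calls (0% of all features) and 0 under 0.05 unadjusted (2.91%), with 8 of 10 higher (57.2% of all features, 52.2% of genes) and a median of 0.11 against 0.02. Ccl8 differed by 0.68 (SE 0.72), Ccl3 by 0.62 (SE 0.92) and Ccl11 by 0.36 (SE 0.79), and Ccl5 by -0.15 (SE 0.42). Single mice moved these: Ccl3 was 0.19 without HD replicate 3, Ccl8 was 0.36 without HD replicate 2 and 1.10 without HD replicate 1, and Ccl5 was -0.41 without CON replicate 3. Ccl11 was -0.15 without CON replicate 3 and 0.91 without HD replicate 1. Ccl3 alone had all HD mice above all CON mice (5.58% of all features did). MIX minus E2 gave 0 of 10 calls (0%) and 0 under 0.05 unadjusted (2.78%), with 6 of 10 higher (43.7% of all features, 47.2% of genes). There Ccl8 stood at 0.97 (SE 0.82), Ccl11 at 0.80 (SE 0.89) and Ccl12 at -0.50 (SE 0.60). Without MIX replicate 3 these were 0.25, 0.17 and -1.17, and without MIX replicate 1 Ccl8 was 1.75 and Ccl11 1.63. Ccl11 was 0.03 with array weights, and Ccl12 changed sign in 3 of 22 alternatives. The plain difference of group means of Ccl12, which has no term for the title's code style, was -0.11. Averaged over pellet states, 7 of 10 were higher on the high-fat diet (50.7% of all features, 49.8% of genes) with a median of 0.07 against 0.00, and 0 were called (0%) or under 0.05 unadjusted (3.36%).

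The interaction (MIX minus HD, less E2 minus CON) asks whether the diet alters the response to estradiol. It was -0.86 (SE 1.39) for Ccl3, -0.74 (SE 0.80) for Ccl12, 0.44 (SE 1.19) for Ccl11, 0.42 (SE 0.63) for Ccl5 and 0.28 (SE 1.09) for Ccl8. Without MIX replicate 3 these were -1.78, -1.41, -0.19, 0.02 and -0.43, and without HD replicate 3 that of Ccl3 was -0.11. The sign changed in 3 alternatives for Ccl12, 3 for Ccl11, 1 for Ccl5 and 4 for Ccl8. From plain group means, without the code style term, the interaction of Ccl12 was -0.35. Again 0 of 10 were called in limma (0% of all features) and 0 were under 0.05 unadjusted (2.1%). Above 0 were 4 of 10 members, 40.4% of all features and 46.7% of genes. For Ccl3 the 95% confidence interval ran from -3.95 to 2.23, so differences of several log2 units in either direction are within the error.

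The members were also ranked by mouse. MIX replicate 3 had the highest value of 6 members (Ccl2, Ccl5, Ccl7, Ccl8, Ccl11 and Ccl12) and was among the top 2 for 9 of 10. The share of all features that were highest in this mouse was not counted, so these counts say nothing particular about the chemokines. The score of MIX replicate 3 on the first principal component of all features was also the highest. E2 replicate 1 was highest for Ccl3 and Ccl4, and E2 replicate 3 for Ccl20 and Ccl24. The highest value of each member was thus in 1 of these pellet mice, also for Ccl11 and Ccl24, whose fitted pellet differences were -0.35 and -0.01. Without MIX replicate 3 the number of members higher in MIX was 5 against HD and 5 against CON.

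**Figure D3:**
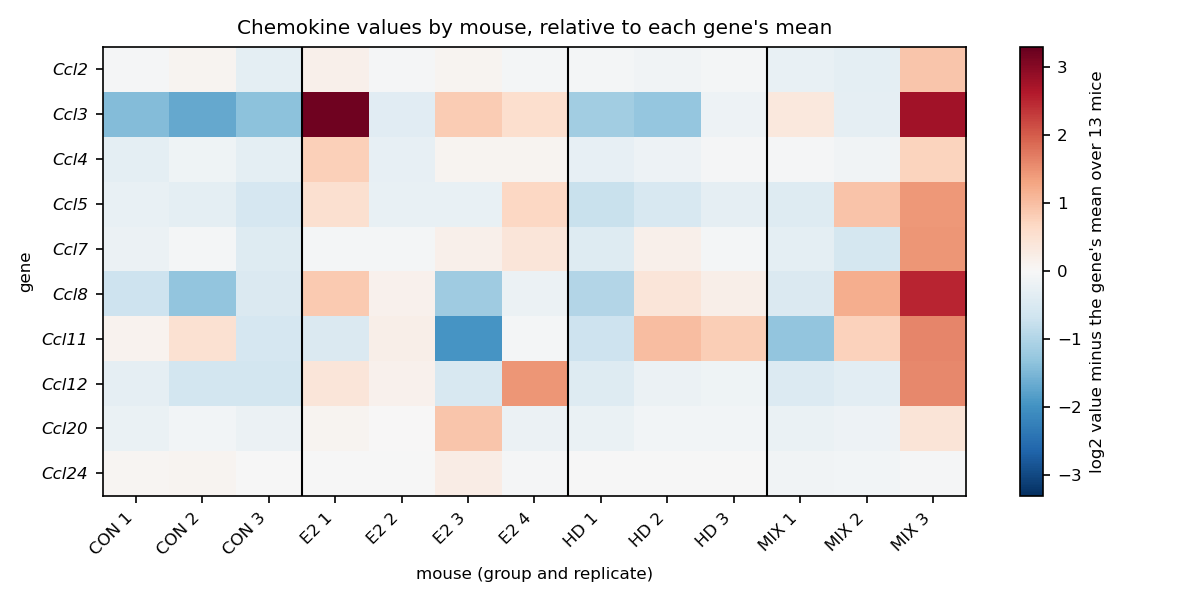
Colour gives each mouse's log2 value minus that gene's mean over the 13 mice, with mice in columns and chemokines in rows. The darkest cells are Ccl3 in E2 replicate 1 and in MIX replicate 3, followed by Ccl8 in MIX replicate 3. The column of MIX replicate 3 is above the mean for all members but Ccl24.

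Leaving out 1 mouse at a time kept the fitted pellet differences of Ccl3, Ccl4, Ccl5, Ccl8, Ccl12, Ccl20 and Ccl2 above 0, and changed the sign for Ccl7, Ccl11 and Ccl24. Ccl3 had plain differences of 1.72 to 2.48 with exact permutation p-values of 0.00286 to 0.02. These tests had 300 to 400 relabelings, so their smallest possible p was higher than with all mice. The fitted difference of Ccl3 was 1.18 without E2 replicate 1 and MIX replicate 3, and that of Ccl4 was 0.13. Sample titles carry either a numbered or a lettered code, and all MIX codes are lettered. Within the numbered code, E2 minus CON was 2.78 for Ccl3, and within the lettered code it was 1.92, with 1 mouse per group. MIX minus HD within the lettered code was 1.11 for Ccl3. For Ccl11, E2 minus CON was -1.05 in the numbered and 0.51 in the lettered code, and for Ccl5 it was 0.30 and 1.23.

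**Figure D4:**
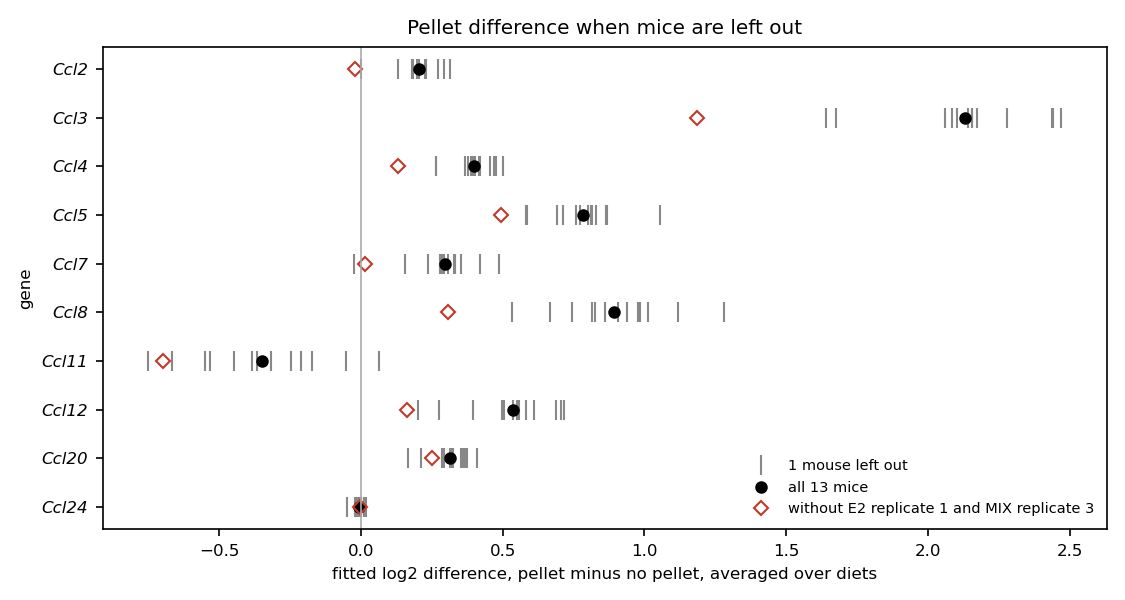
Fitted pellet difference averaged over diets (horizontal axis, log2) for each chemokine with all 13 mice (dots), with 1 mouse left out (ticks) and without E2 replicate 1 and MIX replicate 3 (diamonds). Ccl3 stayed at 1.18 or above, whereas Ccl2 reached -0.02 as a diamond.

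Genes with the most similar profile over the 13 mice were sought for Ccl11, Ccl5 and Ccl3, the 3 members with the highest means, among 20471 genes. These correlations are descriptions, and the mice share RMA, treatment and cell makeup. Ccl3 was most like Hcar2, a niacin receptor (Pearson r = 0.973, Spearman rho = 0.879), Il1rn, the interleukin 1 receptor antagonist (0.972 and 0.918), and Il1b, interleukin 1 beta (0.970 and 0.967). Without E2 replicate 1 and MIX replicate 3 the r values were 0.919, 0.896 and 0.955. Ccl5 was most like the T cell gene Ms4a4b (r = 0.968, rho = 0.902), the complement gene C1ra (0.968 and 0.930) and the leukocyte surface gene Cd52 (0.966 and 0.955). Without MIX replicates 2 and 3 they were 0.945, 0.937 and 0.902. Ccl11 was most like Mug-ps1 (r = 0.860, rho = 0.813), Zfp804a (0.851 and 0.808) and Mug2 (0.850 and 0.841), with Mug-ps1, Zfp804a and Mug2 all near background. Without E2 replicate 3 and MIX replicate 3 the r values for Ccl11 were 0.807, 0.735 and 0.828.

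Of 11 receptors of CC chemokines listed, 10 were measured and 6 of these were near background, among them Ccr3 and Ccr6, the receptors of the eotaxins and of Ccl20. In the pellet average 0 of 10 receptors were called and 7 were higher. As for the lists that follow, 38.9% of all features (45.1% of genes with 1 symbol) were higher in it, and 0.0167% were called. Ccr1, a receptor of Ccl3 and Ccl5, had a pellet difference of 1.79 (SE 0.62, adjusted p in limma 0.406), and Ccr2, the receptor of Ccl2, Ccl7 and Ccl12, of 0.75 (SE 0.30, adjusted p 0.458). Ccrl2, an atypical receptor that does not signal by the usual route, had a difference of 2.06 (SE 0.67, adjusted p 0.378). Without E2 replicate 1 and MIX replicate 3, Ccr1 was at 0.91, Ccr2 at 0.54 and Ccrl2 at 1.10. Of 12 other CC chemokines, 10 were measured, 0 were called and 6 were higher. Ccl6 had a pellet difference of 0.85 (SE 0.35), Ccl9 of 0.81 (SE 0.35) and Ccl22, a ligand of Ccr4, of 0.24 (SE 0.10). Without those mice Ccl6 was at 0.38, Ccl9 at 0.34 and Ccl22 at 0.12.

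Cytokines that induce CC chemokines were all measured, 12 of 12, and 6 were near background. In the pellet average 0 were called and 8 were higher. Il33, an alarmin of epithelial and stromal cells, had a pellet difference of 1.85 (SE 0.31, adjusted p in limma 0.133), Il1b of 3.49 (SE 0.86, adjusted p 0.278), Tnf of 2.07 (SE 0.56, adjusted p 0.314) and Il1a of 2.96 (SE 0.92, adjusted p 0.365). Of 10 NF-κB feedback genes, 9 were measured, 9 of 9 were higher and 0 were called, with a median of 0.50. Birc3 had a difference of 0.63 (SE 0.17) and Tnfaip3, which limits NF-κB signalling, of 1.60 (SE 0.57). With E2 replicate 1 and MIX replicate 3 left out, the values were 1.46 for Il33, 2.32 for Il1b, 1.48 for Tnf, 2.11 for Il1a, 0.50 for Birc3 and 0.92 for Tnfaip3, and the median of the feedback genes was 0.26.

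Several lists of leukocyte markers also had higher values with the pellet, and their part in the results was not tested. In bulk tissue, more cells of a type and more RNA per cell cannot be told apart. Over all features 38.9% were higher with the pellet, and 9.99% had an unadjusted p under 0.05 in limma. Of 15 macrophage and monocyte markers, 14 were higher with the pellet and 0 were called (10 under 0.05 unadjusted), with a median of 0.81. Their mean level was 6.72 to 7.05 in CON, 7.60 to 7.94 in E2, 7.38 to 7.42 in HD and 7.47 to 8.76 in MIX. Lyz2, lysozyme, differed by 1.81 (SE 0.43) and the complement gene C1qb by 1.20 (SE 0.31). Of 10 neutrophil markers, 6 were higher and 0 were called (4 under 0.05 unadjusted). Their median was 1.01, with S100a8 at 4.25 (SE 0.92) and S100a9 at 3.81 (SE 0.86). Those not higher were Ly6g (-0.01), Mpo (-0.04), Camp (-0.12) and Elane (-0.13). The mean level of all 10 was 4.81 to 5.17 in CON, 5.75 to 7.21 in E2, 5.26 to 5.53 in HD and 5.66 to 8.26 in MIX. With E2 replicate 1 and MIX replicate 3 left out, the neutrophil range was 5.75 to 6.25 in E2 and 5.66 to 6.06 in MIX. The median was 0.37, with S100a8 at 2.99, S100a9 at 2.66 and Ly6g at -0.56. The macrophage median was then 0.72, with 14 of 15 markers higher.

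All 13 T and NK cell markers were higher with the pellet and 0 were called (3 under 0.05 unadjusted), with a median of 0.38 and Cd3g at 0.72 (SE 0.19). Their mean level was 4.88 to 5.17 in CON, 5.18 to 5.53 in E2, 4.91 to 5.04 in HD and 5.12 to 5.87 in MIX. Without those mice 13 of 13 were higher, with a median of 0.23 and Cd3g at 0.48. Of 8 eosinophil markers, 6 were measured, 3 of them near background (Prg2, Ear6 and Il5ra). Of the 6, 3 were higher with a median of 0.00, and 0 were called (0 under 0.05 unadjusted). Their mean level was 4.14 to 4.29 in CON, 4.21 to 4.34 in E2, 4.18 to 4.39 in HD and 4.26 to 4.36 in MIX. The ranges of all 4 groups overlap for the eosinophil list, as they do for Ccl11.

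Markers of other tissue layers differed in direction, and their part in the chemokine values was not tested. Smooth muscle markers were higher with the pellet in 1 of 7 (median -0.16), adipocyte markers in 0 of 5 (median -0.21) and epithelial markers in 5 of 9 (median 0.02), with 0 called in each list. Stromal markers were higher with the pellet in 8 of 8 measured (median 0.50, 0 called), with mean levels of 7.99 to 8.69 in CON, 8.12 to 9.37 in E2, 8.28 to 8.45 in HD and 8.24 to 9.80 in MIX. Mesothelial markers were higher in 6 of 6 (median 0.86, 0 called), at 8.11 to 8.66 in CON, 8.58 to 9.69 in E2, 8.74 to 8.83 in HD and 9.02 to 9.68 in MIX. Of all the lists, the calls were of 1 gene: Alas2, the heme synthesis enzyme of red cell precursors, rose by 1.22 in the pellet average (SE 0.11, adjusted p in limma 0.0148), by 1.89 in MIX minus HD (SE 0.18, adjusted p 0.0265) and by 2.18 in MIX minus CON (SE 0.18, adjusted p 0.0139). The Alas2 calls depended on the code style term: without it the values were 0.86, 1.07 and 1.36, with adjusted p of 0.347, 0.373 and 0.318. With 1 mouse left out at a time, 7, 5 and 7 of 13 fits called Alas2, with adjusted p up to 0.108 (without CON replicate 3), 0.127 (without HD replicate 1) and 0.350 (without CON replicate 3).

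**Figure D5:**
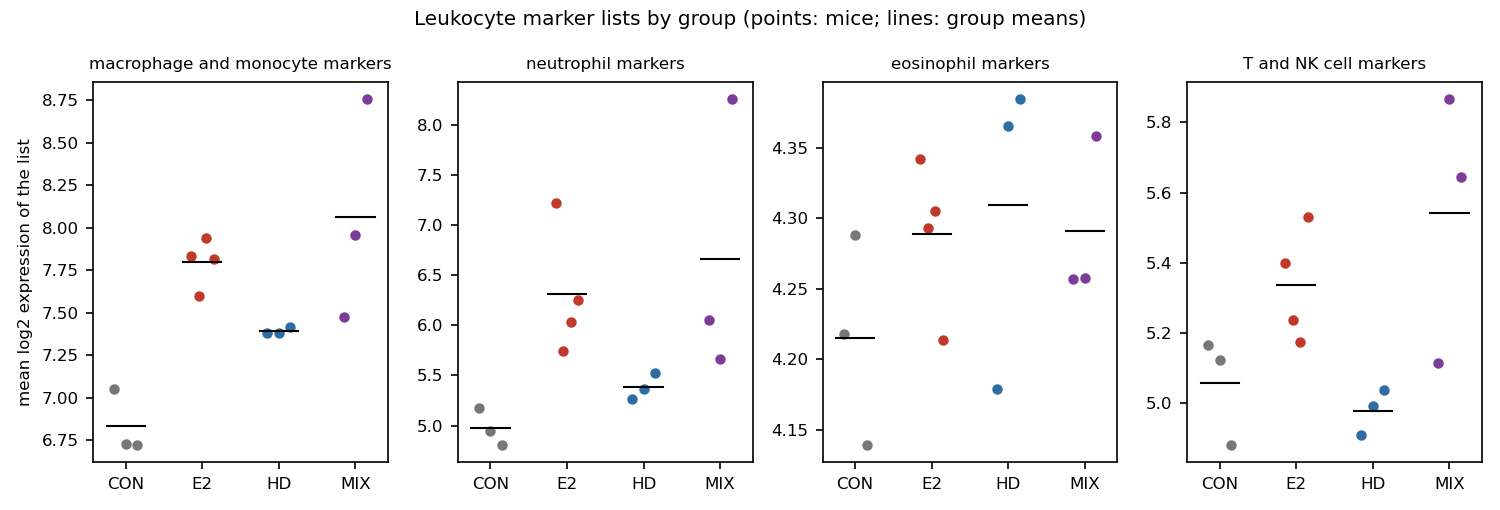
Mean log2 expression (vertical axis, a separate scale in each panel) of 4 leukocyte marker lists, with 1 point per mouse and lines at group means. The macrophage list lies at 6.72 to 7.05 in CON and 7.60 to 7.94 in E2, and the eosinophil list overlaps between all groups.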

How the data were processed

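Endometrial RNA of 13 mice (250 ng each) was hybridised to Affymetrix arrays per the labels' protocols. Each deposited value is a feature's log2 expression, for which the submitters' processing notes name RMA as the authors' method; no source used here gives its version, the array's build or any filter. RMA equalises the arrays, and an array has no read depth, so the number of mice limits precision.

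Features were named through the supplied annotation (30604 with 1 symbol, 2146 with several, 33179 unnamed, 827 symbols updated), and a gene with several features by that with the highest mean. Of 175 list entries 159 were measured. All 65929 features entered 1 fit in limma 3.58.1 (R 4.3.3) of 4 groups and title code style (numbered in 2 CON, 3 E2 and 2 HD mice, otherwise lettered; 0 features differed by style in limma after adjustment, 3516 at an unadjusted p under 0.05). Residual degrees of freedom were 8. The 8 comparisons used Benjamini-Hochberg adjustment over all features and a threshold of 0.05, two-sided, and the fit was tested on simulated data.

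All members are named, and from other lists at most 4 genes a comparison: those that passed or, where none did, those with the smallest p in the pellet average. Not every gene this allows is given. Alternatives changed normalization, filter, variance model, code style, replicate block and the mice included. The members and lists were chosen with earlier results of these data known.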

Additional observations from a re-analysis of the deposited data

Results flagged for a closer look

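Ccl24 in E2 replicate 3 stood far from the other E2 mice: the gap to the nearest was 0.941 of the group's range, above Dixon's 95% critical value for 4 mice. That value flags about 5% of groups by chance, and 10 groups were checked. The value was 5.08 where the other E2 mice had 4.80 to 4.82.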

How the results depend on the processing

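No alternative called a member in limma: 0 of 1794 alternative values of 80 differences, with a lowest adjusted p of 0.0698. These values come from 22 alternative fits and, for pairs of groups, fits of the compared groups alone. They are therefore not independent. The sign changed in 166 of the 1794 values, affecting 47 of 80 differences, and the cause was not tested. Members higher, with 1 mouse left out at a time, numbered 8 to 9 of 10 in E2 minus CON (8 with all mice), 4 to 8 in HD minus CON (8; 4 without CON replicate 3), 5 to 10 in MIX minus HD (8), 2 to 8 in MIX minus E2 (6), 5 to 9 in MIX minus CON (9), 7 to 10 in the pellet average (8), 2 to 9 in the diet average (7) and 1 to 8 in the interaction (4). The lowest MIX, diet and interaction counts were without MIX replicate 3. Without E2 replicate 1 and MIX replicate 3 together, an alternative chosen after seeing the data, they were 5, 2, 5, 2 and 1 for MIX minus HD, MIX minus E2, MIX minus CON, diet and interaction. Array weights gave 2 for the interaction. Same-numbered mice were treated as unpaired, since the labels name no pairing. Their deviations correlated between -0.261 and 0.31 over 18 pairs, 5 of them over 0.1, which cannot exclude a pairing. With the replicate block and code style, 6 members were higher in E2 minus CON, 8 in HD minus CON, 9 in the pellet average and the interaction, and 10 in the other 4 comparisons, and 0 were called. The filter on dim features left 8 members, without Ccl12 and Ccl20. Features called in the pellet average were 11, with 0 to 224 when 1 mouse was left out and 0 to 14 otherwise. The same ranges were 0 to 80 and 0 to 12 for MIX minus HD (3), 0 to 89 and 0 to 15 for MIX minus CON (2), 0 to 24 and 0 to 1 for MIX minus E2 (0), 0 to 3 and 0 to 1 for the diet average (0), and 0 to 2 and 0 for the interaction (0). Another feature of a gene could not be tried, since each member had 1.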
